A study of Mus musculus with 2 samples.

Results

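The Ly6 genes measured here were Ly6a, Ly6c1, Ly6c2, Ly6e, Ly6g and Ly6i, the 6 of 32285 genes in the count matrices whose symbol is one of these names. They were followed in single cell RNA sequencing of lungs from female BALB/cJ mice, 12 weeks old, that carried tumors of 4T1, a mouse mammary carcinoma line (named 4T1-luc2-tdTomato in the methods of the study, a form with luciferase and tdTomato reporters), grown from 100000 injected cells for 14 days. One group received intravenous saline and the other received intravenous cargo-free nanoparticles of poly(lactide-co-glycolide), here NP, every 3 days starting 1 day after the tumor cells. No group was free of tumor, and no further allele or agent differed between the groups. Each group was 1 library made from pooled lungs, of 4 mice by the sample labels (the methods of the study give another number), so no difference between the libraries could be tested and every interval below is a 95% interval that covers counting error only.

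The libraries held 91168129 UMIs (unique molecular identifiers, the counted RNA molecules) in saline and 90081747 in NP. A total of 8662 barcodes in saline and 8333 in NP passed the limits of 500 to 5000 detected genes and under 7.5% mitochondrial UMIs, with a median of 6474.5 and 6008 UMIs each. The libraries shared 21 of these barcodes, 0.242% and 0.252% of their cells. Cells were clustered without the 6 genes or their family and were named from marker genes. Neutrophils made up 64.6% of cells in saline and 37.0% in NP, monocytes 9.55% and 18.4%, and endothelial cells 3.46% and 13.6%. B cells, T cells, alveolar macrophages, stromal cells and NK cells were the other classes with at least 50 cells in each library. These names were rebuilt here and may differ from those of the study, and every value by class and every split by class size below rests on them. All 18 neutrophil markers and all 14 endothelial markers were detected in the cells that carry those names, while NK cells lacked Klra8 in both libraries. The T cell class includes a cluster of 84 saline and 66 NP cells led by Cxcr6, Gata3 and Il1rl1. Only 1 T cell marker was among its 10 leading genes, so the T cell values below may include other cells. Detection alone does not set the classes apart, since all 18 neutrophil markers were also detected in each other class compared. In the comparisons below, neutrophil transcripts were found in nearly every class: UMIs of at least 1 neutrophil marker were in 98.0% to 100% of the cells of every other class.

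Ly6 proteins are small, disulfide-rich proteins of the Ly6/uPAR family that most often sit on the outer cell surface through a glycosylphosphatidylinositol (GPI) anchor. In mice several of them serve as surface labels for cell types. Ly6a encodes Sca-1, the label of mouse hematopoietic stem cells, which is also found on endothelium and fibroblasts. Ly6c1 and Ly6c2 encode the closely related Ly6C proteins, and high Ly6C marks classical monocytes. Ly6g encodes the neutrophil label bound by antibodies to Gr-1 and Ly6G. Ly6e encodes a broadly expressed protein that is induced by interferon and limits the entry of coronaviruses into cells. Ly6i is a less studied relative.

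The 6 genes lie close together on chromosome 15 of GRCm38, in the order Ly6e, Ly6i, Ly6a, Ly6c1, Ly6c2 and Ly6g, over 204076 bases from 74955051 to 75159126. I830127L07Rik lies between Ly6c2 and Ly6g and was left out of the pairwise identities below. RefSeq names it Ly6a2 and lists it as protein coding, while GENCODE lists it as a transcribed pseudogene. All 6 members are annotated as protein coding. Ly6e and Ly6g are on the plus strand and the other 4 are on the minus strand. The similarity of neighbours bears on how far 3′ reads can be told apart, so the last 500 bases of each transcript were compared. Ly6c1 and Ly6c2 were 95.5% identical there, and 34 of 410 windows of 91 bases (8.29%) were the same in both, so the split of reads between these genes is less certain than for the rest. Ly6e was 49.3% to 50.8% identical to the others, and all other pairs were 80.7% to 85.9% identical. The windows were looked up in all GENCODE transcripts, and none of Ly6a, Ly6e, Ly6g and Ly6i shared a window with another gene.

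The upstream sequences of Ly6c1, Ly6c2 and Ly6g are shown because these neighbours have similar genes but different cell type patterns in the data below. They are RefSeq sequences of GRCm38.p6 and hold the 250 bases before the RefSeq start, at chr15:75048838-75049087 on the minus strand for Ly6c1, chr15:75111972-75112221 on the minus strand for Ly6c2 and chr15:75155011-75155260 on the plus strand for Ly6g. The table held an entry for 3 of the 6 members, and Ly6a, Ly6e and Ly6i had none. Capitals mark the longest run of bases that all 3 have in common, 12 bases long, and sequences are written 5′ to 3′.
Ly6c1: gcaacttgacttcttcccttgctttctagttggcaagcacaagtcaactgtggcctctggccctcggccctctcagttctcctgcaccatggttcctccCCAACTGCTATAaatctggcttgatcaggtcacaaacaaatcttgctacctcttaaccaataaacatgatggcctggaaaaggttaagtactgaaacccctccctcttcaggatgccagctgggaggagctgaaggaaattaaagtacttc
Ly6c2: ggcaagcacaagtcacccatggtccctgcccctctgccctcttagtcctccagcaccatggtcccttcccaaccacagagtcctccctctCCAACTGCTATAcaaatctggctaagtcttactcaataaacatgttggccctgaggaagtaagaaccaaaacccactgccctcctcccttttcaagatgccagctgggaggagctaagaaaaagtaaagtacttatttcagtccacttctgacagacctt
Ly6g: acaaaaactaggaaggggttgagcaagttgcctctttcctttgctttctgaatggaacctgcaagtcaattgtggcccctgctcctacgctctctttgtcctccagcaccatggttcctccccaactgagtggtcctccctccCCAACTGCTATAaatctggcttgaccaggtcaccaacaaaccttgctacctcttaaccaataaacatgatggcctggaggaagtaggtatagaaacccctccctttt
The run began 151 bases before the start of Ly6c1, 160 before that of Ly6c2 and 107 before that of Ly6g. On either strand it was in 6 of 32851 RefSeq promoters (0.0183%), and these were starts of the same 3 genes, from which the run was chosen, and of their neighbour Ly6a2. Aligned over their full length, with gaps and unpaired ends counted as differences, Ly6c1 was 59.0% identical to Ly6c2 and 59.1% to Ly6g. Ly6c2 was 50.3% identical to Ly6g on the same count. Because the run lies at different distances from the 3 starts, the sequences are offset. These values are thus not the identity of the parts that overlap. The windows from 250 bases before to 50 after the start were also searched on both strands. The core of an interferon-stimulated response element (the letters TTTC, any 2 bases and TTTC) was in 3.44% of all such windows, and the gamma-activated site (TTC, any 3 bases and GAA) was in 8.30%. Neither was in a window of these 3 genes, which says only that the letters are absent there. The printed Ly6g sequence runs 21 bases past the start that GENCODE gives.

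Each member was read mainly from a small number of classes. Among the 8 classes compared, the class that led was the same in both libraries for every member except Ly6i. Levels are given as CPM, the UMIs of a gene per 1000000 UMIs of the class, which compare 1 gene across classes and not genes with each other.

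Ly6a was read most from endothelial cells. Its level in endothelial cells was 3081 CPM in saline (2990 to 3173) and 3456 CPM in NP (3407 to 3506). Stromal cells followed with 666 and 841 CPM, but 10 cells held 77.3% of their saline UMIs and 53.8% of their NP UMIs. In stromal cells without an endothelial marker UMI, 50 in saline and 59 in NP, Ly6a was 48.1 and 36.6 CPM. This filter can also take out stromal cells that read a gene of the endothelial list themselves. Fibroblasts led by Dcn and Pi16, given below, had a far higher level. The filtered values thus cannot be taken as the Ly6a level of fibroblasts. Every other class lay far lower, from B cells with 45.0 and 54.0 CPM and T cells with 34.1 and 38.9 CPM down to neutrophils with 3.28 and 7.88 CPM. In saline the intervals of B and T cells overlapped, as did those of NK cells, monocytes, neutrophils and alveolar macrophages as neighbours in the order. Endothelial cells carried 66.2% of all Ly6a UMIs in saline and 78.6% in NP. A cluster left without a name, led by Ager, Emp2 and Cldn18 with Ly6a also among its leading genes, carried another 10.5% and 9.07%.

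Ly6c1 followed Ly6a in endothelium but not in the blood-derived cells. Endothelial cells had 3076 CPM in saline and 3112 CPM in NP, and stromal cells had 327 and 606 CPM, with 91.9% of their saline UMIs in 10 cells. Stromal cells without an endothelial marker UMI had 24.0 and 39.9 CPM of Ly6c1, under the same limit of that filter. Monocytes came next with 81.0 and 129 CPM, then NK cells with 54.3 and 67.8 CPM. Neutrophils had 18.5 and 35.9 CPM, and alveolar macrophages were lowest with 1.03 and 5.59 CPM. Endothelial cells held 55.5% of Ly6c1 UMIs in saline and 66.8% in NP.

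Among the 8 classes compared, Ly6c2 was instead a transcript of monocytes and NK cells. Monocytes had 423 CPM in saline (411 to 434) and 785 CPM in NP (773 to 796), and NK cells had 353 and 460 CPM. Neutrophils had 83.9 and 182 CPM and T cells had 61.6 and 139 CPM. Endothelial cells, which read the neighbouring Ly6c1 so strongly, had 9.80 and 10.9 CPM of Ly6c2, at the bottom of the order together with stromal cells and alveolar macrophages. Monocytes held 48.6% and 70.3% of Ly6c2 UMIs and neutrophils 36.4% and 17.1%. A cluster left without a name, led by Mpo, Ctsg and Prtn3, held 4.88% and 3.08% of them. That cluster had 0.936% and 1.35% of all UMIs. Plasmacytoid dendritic cells, too few for these comparisons, stood above monocytes and are given in the closing section.

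For Ly6e, endothelial cells had 1054 and 1241 CPM and monocytes 651 and 1121 CPM, followed by B cells with 294 and 370 CPM and stromal cells with 123 and 299 CPM. T cells had 74.8 and 144 CPM and neutrophils 41.5 and 95.3 CPM. NK cells with 30.2 and 37.8 CPM and alveolar macrophages with 8.62 and 18.6 CPM were lowest. In saline only the neighbours neutrophils and NK cells overlapped in their intervals, and in NP no neighbours did.

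Ly6g was read almost wholly from neutrophils. They had 637 CPM in saline (630 to 645) and 883 CPM in NP (871 to 895) and held 96.1% and 92.2% of all Ly6g UMIs. B cells had 76.7 and 63.9 CPM and monocytes 31.1 and 22.4 CPM. Outside neutrophils the counts sat in few cells: 1 B cell held 71 of the 238 Ly6g UMIs of B cells in NP, and 1 NK cell held 57 of the 63 of NK cells in NP.

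Ly6i was rare. It was counted 38 times in the whole saline library and 512 times in NP. Monocytes had 1.72 CPM in saline and 15.8 CPM in NP, and neutrophils had 0.249 and 4.85 CPM. Endothelial cells had 2.80 CPM from 4 UMIs in saline and 2.95 CPM from 16 UMIs in NP, so in saline their interval overlapped that of monocytes. No Ly6i UMI was found in B cells or alveolar macrophages of either library, where 3 UMIs would be 0.888 CPM in saline B cells and 0.805 CPM in NP B cells.

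**Figure D1:**
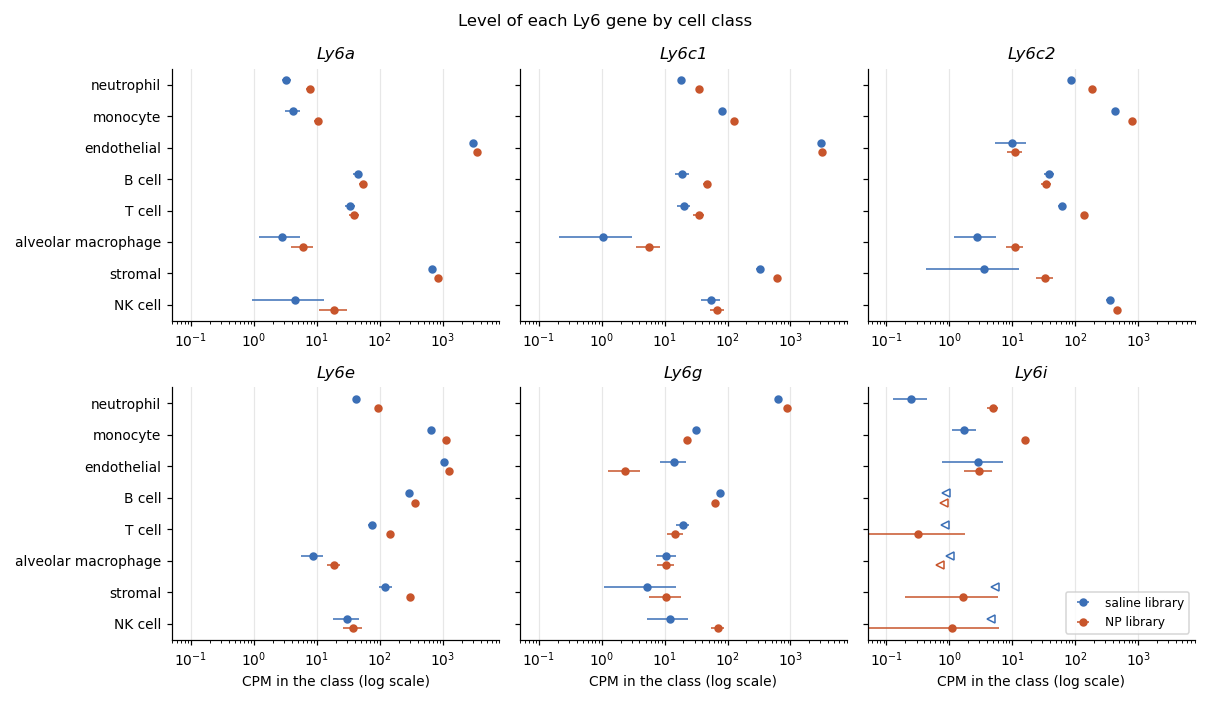
Level of each Ly6 gene in 8 cell classes, in CPM on a log axis, for saline and NP, 1 library each, with bars that give the 95% counting interval. Open triangles stand at the level of 3 UMIs where a class had none; Ly6a and Ly6c1 peak in endothelial cells, Ly6c2 in monocytes and Ly6g in neutrophils in both libraries.

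The share of cells with at least 1 UMI was also read after each cell was thinned to 1000 UMIs. By this share monocytes led for Ly6e in NP (66.1%, and 63.0% of endothelial cells) and NK cells, just above the 24.9% of monocytes, for Ly6c2 in saline, unlike by CPM. The intervals overlapped in both, so no order is read from them. Ly6a was in 76.4% of endothelial cells in saline and 84.4% in NP, against 0.376% and 0.810% of neutrophils, a class not known for Sca-1. Before thinning the neutrophil shares were 2.20% and 5.02%, and median depths were 3840 and 3831.5 UMIs for endothelial cells and 6050 and 5238 for neutrophils. Ly6g was in 20.9% and 23.7% of thinned neutrophils against 1.01% and 0.448% of endothelial cells. Before thinning 44.7% of saline and 44.5% of NP neutrophils had a Ly6g UMI. Ly6e was in 45.8% and 66.1% of thinned monocytes against 0.610% and 1.83% of alveolar macrophages, whose medians were 17268 and 19588 UMIs. Ly6c2 was in 24.9% and 37.5% of thinned monocytes against 0.337% and 1.26% of endothelial cells.

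Over all cells of a library 5 of the members were higher in NP and Ly6g was lower. Ly6a was 85.4 CPM in saline and 330 CPM in NP, Ly6c1 102 and 349 CPM, Ly6c2 142 and 354 CPM, Ly6e 190 and 554 CPM and Ly6i 0.488 and 7.07 CPM. Ly6g was 410 and 319 CPM. Because the classes differed in size between the libraries, these values were split by giving the saline levels the NP class sizes, and the NP levels the saline class sizes. For Ly6a the log2 ratio of 1.95 became 1.75 with class sizes alone and 0.25 with class levels alone. Ly6c1 had 1.78, 1.59 and 0.36. Ly6c2 was the reverse, with 1.31 in all, 0.46 from class sizes and 0.92 from class levels. Ly6e had 1.54, 0.89 and 0.74, and Ly6i had 3.86, 0.78 and 3.56. For Ly6g the directions were opposed: -0.36 in all, -0.78 from class sizes and 0.45 from class levels.

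**Figure D2:**
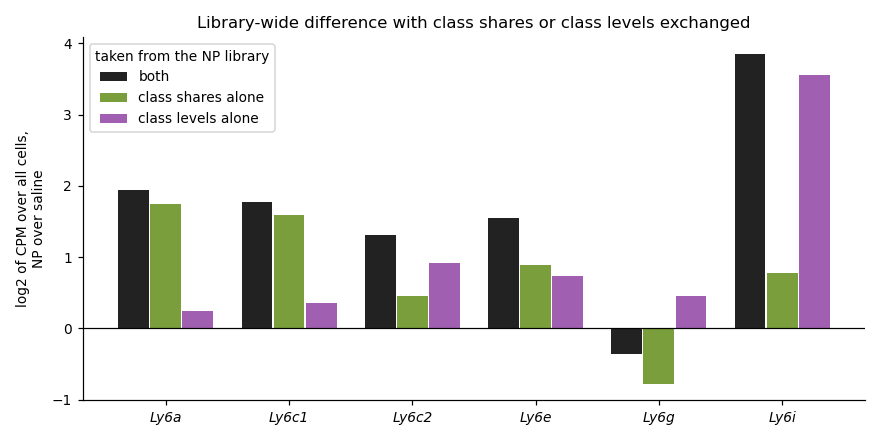
Log2 ratio of NP to saline for each Ly6 gene over all cells, beside the ratios from class sizes alone and from class levels alone. Class size is the share of UMIs. Ly6a and Ly6c1 move mostly with class sizes, Ly6c2 and Ly6i mostly with class levels, and for Ly6g the pair of parts have opposite signs.

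Within the classes, NP was set against saline for each member with at least 20 UMIs over both libraries, 42 of 48 pairs of gene and class. A ratio past 2-fold was called, with no test behind it. Of the 42 pairs 16 were past 2-fold higher in NP and 1 was past 2-fold lower.

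Neutrophils carried 4 of these. Of all 11108 genes counted in neutrophils 4.07% were past 2-fold higher and 3.3% lower, and 4 of the 6 members were higher and none lower. Ly6i went from 12 to 117 UMIs, 0.249 to 4.85 CPM, which was 19.5-fold (10.7 to 38.8). Ly6a was 2.40-fold higher (1.94 to 2.99), Ly6e 2.30-fold (2.16 to 2.44) and Ly6c2 2.17-fold (2.08 to 2.27). With cells called doublets removed the log2 ratio of Ly6a was 0.74, short of 2-fold. That removal took 1 saline cell and 307 NP cells over all classes, so it was not even between the libraries. Without sub-clusters of other markers or of 1 library the log2 ratio of Ly6c2 was 0.96, also short of 2-fold. Ly6c1 was just short of the line with 1.94-fold and Ly6g was 1.39-fold higher (1.36 to 1.41). The median log2 ratio over the 6 members was 1.16, against -0.13 over all genes counted. The neutrophils of the libraries were not alike in make-up: interferon-response neutrophils, led by Cxcl10, Ifi47 and Rsad2, were 115 cells in saline and 1039 in NP, and a sub-cluster led by Saa3 was 1041 cells in saline and 11 in NP. Of the 14 endothelial markers all were detected in neutrophils of both libraries, at a summed 23.3 CPM in saline and 50.7 CPM in NP, in 13.3% and 23.6% of the cells. In the neutrophils without any such UMI, 4856 in saline and 2360 in NP, Ly6a was 1.92 and 5.07 CPM, Ly6e 41.1 and 98.7 CPM and Ly6c2 79.7 and 167 CPM.

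In monocytes 3.9% of 11545 genes were past 2-fold higher and 1.79% lower, and Ly6i and Ly6a were the 2 members past it, both higher. Ly6i went from 22 to 362 UMIs, 9.15-fold (5.95 to 14.8). Ly6a went from 53 to 238 UMIs, 4.16 to 10.4 CPM, and 1 saline cell held 15 of the 53. In the RNA outside cells Ly6a was 97.0 CPM in saline and 343 CPM in NP. Subtracting that RNA by the amount that epithelial secretory genes gave left 0 and 8.12 CPM of Ly6a in monocytes. By the amount that neutrophil genes gave, 0 was left in both libraries. The part of this RNA in the Ly6a ratio was not tested. Ly6c2 was 1.86-fold higher (1.80 to 1.91), Ly6e 1.72-fold (1.68 to 1.77) and Ly6c1 1.59-fold. Ly6g was lower, 0.720-fold (0.630 to 0.823). Endothelial markers were at a summed 33.2 CPM in saline and 87.2 CPM in NP. Monocytes with none of their UMIs were 573 of 827 in saline and 730 of 1530 in NP. In these Ly6a was 2.10 and 5.89 CPM, Ly6c2 was 437 and 886 CPM and Ly6e was 625 and 1056 CPM. Pecam1, on the endothelial list, was also a leading gene of non-classical monocytes. The filter can therefore change the mix of monocytes as well as remove endothelial RNA.

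Endothelial cells, where Ly6a and Ly6c1 were highest, had log2 ratios near 0 for these genes. There 2.39% of genes were past 2-fold higher and 2.01% lower. Ly6c1 was 1.01-fold (0.979 to 1.05), Ly6a 1.12-fold (1.09 to 1.16) and Ly6e 1.18-fold (1.11 to 1.25), none past 2-fold. The make-up of the class differed too: a sub-cluster led by Hbb-bs was 40 cells in saline and 320 in NP. Giving the saline levels the NP sub-cluster shares of UMIs gave log2 ratios of 0.25 for Ly6a and 0.21 for Ly6c1. Giving the NP levels the saline shares gave -0.03 and -0.19. A class ratio near 0 thus does not show that levels held within sub-clusters. Ly6g was the 1 member past 2-fold lower, from 20 UMIs to 13, 14.0 to 2.40 CPM, and 17 of the 20 saline UMIs were in 8 cells of a sub-cluster led by Il1b, Cxcl2 and Hdc. The summed level of neutrophil markers in endothelial cells was 12291 CPM in saline and 4077 CPM in NP, and the part of it in the Ly6g value was not tested.

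In lymphocytes the calls were few. B cells had 1 of 5 members past 2-fold higher, against 2.09% of genes higher and 2.44% lower: Ly6c1, from 65 to 177 UMIs, 19.2 to 47.5 CPM. In B cells with no endothelial marker UMI Ly6c1 was 5.77 CPM from 9 UMIs and 9.19 CPM from 15 UMIs. Ly6a in B cells sat in few cells too, with 79.6% of its saline UMIs and 59.7% of its NP UMIs in 10 cells. T cells had 1 of 5, against 2.93% of genes higher and 1.73% lower: Ly6c2, 2.26-fold higher (1.91 to 2.67), with Ly6e next at 1.93-fold (1.65 to 2.26). Of the NP UMIs of Ly6e 44.5% were in 10 T cells, and without sub-clusters led by markers of another class its log2 ratio was -0.32. Those left out include a sub-cluster of 66 saline and 84 NP cells led by hemoglobin genes. It also had Ccl5, a CD8 T cell marker here, among its leading genes, so T cells may have been left out with it. The Ly6c2 call was lost with either removal of called doublets, and its log2 ratio was lowest, 0.57, with no maximum of genes. In NK cells Ly6c2, the member they read most, was 1.30-fold (1.11 to 1.54). Ly6a, from 3 to 17 UMIs, and Ly6g, from 8 to 63 UMIs, were the 2 of 5 past 2-fold higher in NK cells, against 2.48% of genes higher and 3.27% lower, and without the top cell of the gene in each library each had fewer than 20 UMIs left.

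Alveolar macrophages had 4 of 5 members past 2-fold higher, against 1.36% of genes higher and 1.59% lower, on small counts. Ly6c1 went from 3 to 24 UMIs, 5.40-fold (1.64 to 28.0). Ly6c2 went from 8 to 47 UMIs, of which 1 NP cell held 18. Ly6a went from 8 to 26 and Ly6e from 25 to 80 UMIs. The RNA outside cells, read from barcodes with fewer than 50 UMIs, held more of each of these in NP: 97.0 and 343 CPM of Ly6a, 128 and 399 CPM of Ly6c1, 110 and 263 CPM of Ly6c2 and 175 and 561 CPM of Ly6e. With cells called doublets removed Ly6a and Ly6e were short of 2-fold (log2 ratio of 0.35 for Ly6e), while Ly6c1 and Ly6c2 had fewer than 20 UMIs left. Over all classes that removal took 1 saline cell and 307 NP cells, so it was not even between the libraries. With 1 threshold for both libraries, chosen after seeing the data, 243 saline and 307 NP cells were removed. No member with at least 20 UMIs was then past 2-fold higher in alveolar macrophages. Subtracting the RNA outside cells by the amount that neutrophil genes gave left all 4 under 20 UMIs. In the 16 alternatives that left Ly6c2 at least 20 UMIs its lowest log2 ratio was 1.30. Those that left it fewer gave no ratio, so these values cannot show whether the call holds. Of its NP UMIs 89.4% were in 10 cells.

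In stromal cells 8.13% of genes were past 2-fold higher and 3.98% lower, and 2 of 4 members were higher, Ly6c2 and Ly6e. Ly6c2 went from 2 to 40 UMIs and 34 of the 40 were in 1 cell. Ly6e went from 70 to 366 UMIs, 2.43-fold (1.88 to 3.19), Ly6c1 was 1.85-fold and Ly6a 1.26-fold. Endothelial markers were at a summed 1433 CPM in saline stromal cells and 4638 CPM in NP stromal cells. Without sub-clusters led by markers of another class, an alternative chosen after seeing the data, no stromal member was past 2-fold and the log2 ratios were -0.74 for Ly6a, -0.12 for Ly6c1 and 0.35 for Ly6e. In the stromal cells without an endothelial marker UMI Ly6e was 48.1 and 196 CPM, a log2 ratio of 2.03, from 10 and 59 UMIs. That filter can also take out stromal cells that read a gene of the endothelial list themselves.

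**Figure D3:**
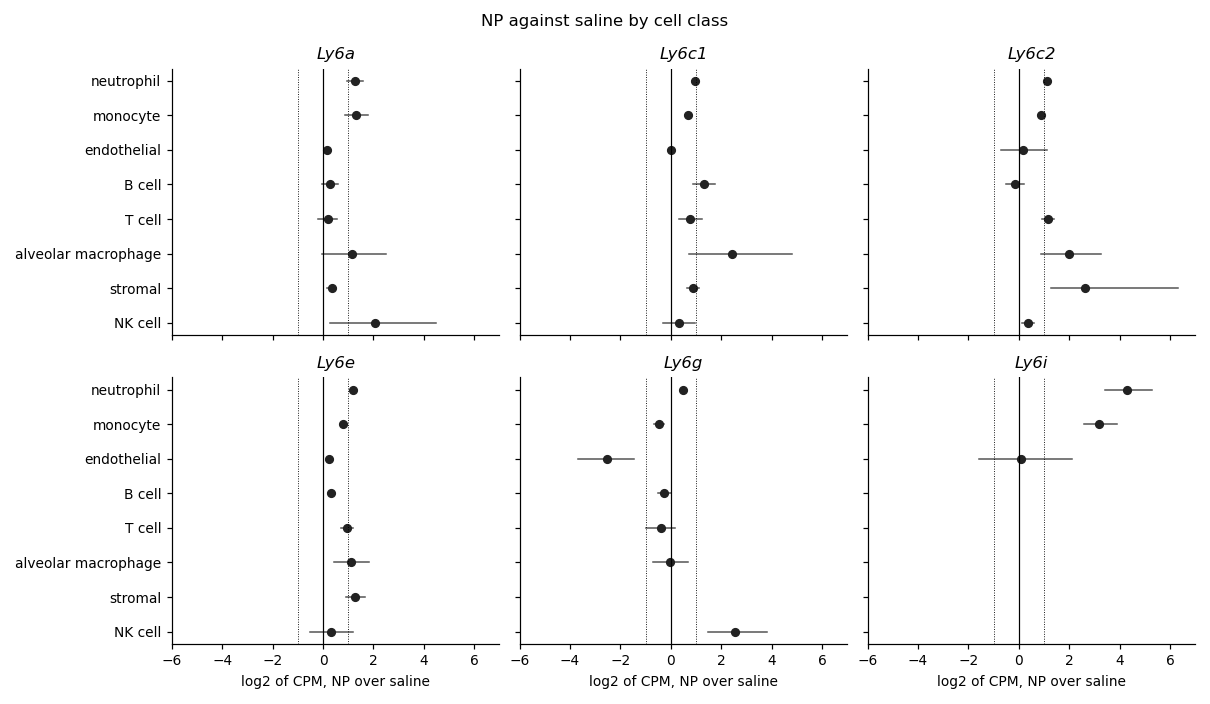
Log2 ratio of NP to saline for each Ly6 gene by cell class, for pairs with at least 20 UMIs, with bars that give the 95% counting interval and dotted lines at 2-fold. In neutrophils and monocytes Ly6i stands above the other members, and in endothelial cells Ly6a, Ly6c1 and Ly6e lie near 0.

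Within neutrophils the members were not read from the same cells. Ly6g was highest in the sub-cluster led by the granule genes Ltf, Camp and Ngp, with 1371 CPM in saline and 1977 CPM in NP, and in that led by Ifitm6, Ggt1 and Stfa3, with 976 and 1340 CPM. A Retnlg-high sub-cluster led by Prok2 had 703 and 893 CPM. Ly6g was lowest among the sub-clusters with over 100 cells in each library in Retnlg-low mature neutrophils, led by Cxcr4 and Atf3, with 27.3 and 26.2 CPM. Ly6c2 had the same peak, with 217 and 401 CPM in the Ltf, Camp and Ngp cells against 6.88 and 21.6 CPM in the Retnlg-low cells. Ly6e went the other way: it was 30.7 and 41.9 CPM in the Ltf, Camp and Ngp cells and 279 and 239 CPM in the interferon-response neutrophils. Within the latter its log2 ratio of NP to saline was -0.22. For Ly6e in the class as a whole the log2 ratio was 1.20. NP sub-cluster shares of UMIs alone gave 1.12 and NP levels alone gave 0.78, so the parts overlap and do not add up. For Ly6g the values were 0.47, 0.03 and 0.51. The levels alone are weighted by saline shares. They rest in part on sub-clusters with few NP cells, 11 in that led by Saa3 and 26 in that led by Stfa2. Ly6i followed Ly6e, with 107 of its 117 NP UMIs in the interferon-response neutrophils.

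**Figure D4:**
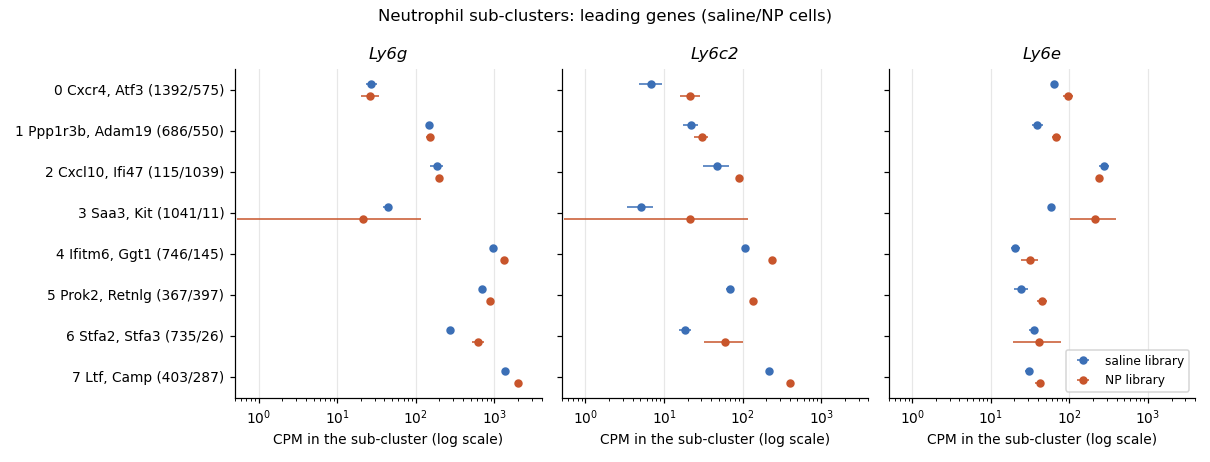
Level of 3 Ly6 genes across neutrophil sub-clusters in CPM on a log axis, for saline and NP, 1 library each, with bars that give the 95% counting interval. Ly6g and Ly6c2 peak in the sub-cluster led by Ltf, Camp and Ngp, while Ly6e is highest in the interferon-response neutrophils.

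Within monocytes Ly6c2 was higher in 3 of the classical sub-clusters than in the non-classical ones, and Ly6C has this use as a surface label. These classical sub-clusters had 983 and 1329 CPM (led by Prtn3 and F13a1), 763 and 1256 CPM (led by Cxcl10 and Cxcl9) and 378 and 788 CPM (led by Apoc1 and Ier3). Non-classical monocytes led by Cd300e and Fabp4 had 1 UMI in 91 saline cells and 109 UMIs, 36.1 CPM, in 348 NP cells. The sub-clusters led by genes of antigen presentation lay between, with 158 and 641 CPM in classical cells led by H2-DMb1 and 140 and 414 CPM in non-classical cells led by H2-Eb1. Ly6e was the other way round, with 1540 and 1694 CPM in those non-classical cells against 717 and 889 CPM in the Prtn3 and F13a1 cells. For Ly6c2 the log2 ratio in all monocytes was 0.89. The sub-cluster shares of UMIs alone gave 0.07 and the levels within sub-clusters, weighted by saline shares, gave 1.00. Ly6i in NP was 39.8 CPM in the Cd300e cells and 29.7 CPM in the other non-classical cells, led by H2-Eb1 and H2-Aa, against 2.13 CPM in the Prtn3 and F13a1 cells. Of the Ly6g UMIs of monocytes, 382 of 397 in saline and 491 of 514 in NP were in 1 sub-cluster led by Cstdc5, Cstdc4, Retnlg and Ngp, genes of neutrophils, where Ly6g was 224 and 293 CPM.

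Among endothelial cells Ly6a and Ly6c1 were highest in aerocyte capillary cells, the large capillary cells of gas exchange, led by Ednrb. Ly6a was 10120 CPM there in saline and 7617 CPM in NP, Ly6c1 was 8395 and 6508 CPM and Ly6e was 2379 and 2136 CPM. These came from 30 saline and 145 NP cells. General capillary cells led by Scube1 and Nckap5 had 1917 and 1538 CPM of Ly6a and 2531 and 1571 CPM of Ly6c1. Large-vessel cells had 1936 and 2236 CPM of Ly6a and 986 and 1051 CPM of Ly6c1. Lymphatic cells, 6 in saline and 22 in NP, had 0 and 30 UMIs of Ly6a and 17 and 101 of Ly6c1. Among stromal cells the fibroblasts led by Dcn and Pi16 had 1079 and 743 CPM of Ly6a and 379 and 241 CPM of Ly6c1. Among T cells Ly6c2 was highest, outside sub-clusters led by genes of other classes, in CD8 cells with 158 and 298 CPM, while Ly6a there was 81.2 and 50.4 CPM. The sub-clusters set aside include that led by hemoglobin genes with Ccl5, so this order holds only for the rest.

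Ly6e and Ly6i were also read against 25 interferon response genes. The list was chosen with earlier results of these data known, so the counts below describe it and test nothing. In neutrophils 24 of these 25 were past 2-fold higher in NP, in monocytes 18 of 25, in endothelial cells 15 of 24 and in stromal cells 17 of 21. Of all genes counted, 4.07% were past 2-fold higher in neutrophils, 3.9% in monocytes, 2.39% in endothelial cells and 8.13% in stromal cells. The list had 3 of 23 past it in B cells, 5 of 24 in T cells, 5 of 18 in alveolar macrophages and 2 of 13 in NK cells. All genes had 2.09%, 2.93%, 1.36% and 2.48% in the same order. Past 2-fold lower on the list were 4 in B cells and 1 in alveolar macrophages, and 0 in each other class. Of all genes 2.44% were lower in B cells and 1.59% in alveolar macrophages. Cells were ranked within each library by the share of these genes after thinning to 1000 UMIs, and the highest and lowest of 3 equal bins were compared. Cells with equal shares were put in random order.

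In NP neutrophils Ly6e was 47.9, 77.2 and 232 CPM from the lowest to the highest bin, and in saline it was 32.3, 36.1 and 62.3 CPM. The log2 ratio of the highest to the lowest bin was 2.27 (2.13 to 2.42) in NP and 0.95 (0.79 to 1.10) in saline. The bins are equal parts of the cells and not equal steps of the share. Interferon-response neutrophils were 115 cells in saline and 1039 in NP, so the bins can span unlike ranges of the share. The ratios therefore do not show that Ly6e follows these genes more steeply in either library. Ly6i in NP neutrophils had 3, 9 and 105 UMIs in the same order. Ly6g ran the other way, with 1310, 637 and 227 CPM in NP and 741, 674 and 436 CPM in saline, and so did Ly6c2, with 248, 131 and 99.1 CPM in NP. The bins were not alike in depth: the median was 8216 UMIs in the lowest and 4302.5 in the highest NP bin. In monocytes Ly6c2 went with the ranking: it was 727 CPM in the lowest and 916 CPM in the highest NP bin. Ly6e was 982 and 1296 CPM there in NP, and 513 and 818 CPM in saline. The bins are a ranking of cells within 1 library and not replicates, and the part of depth was not tested.

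**Figure D5:**
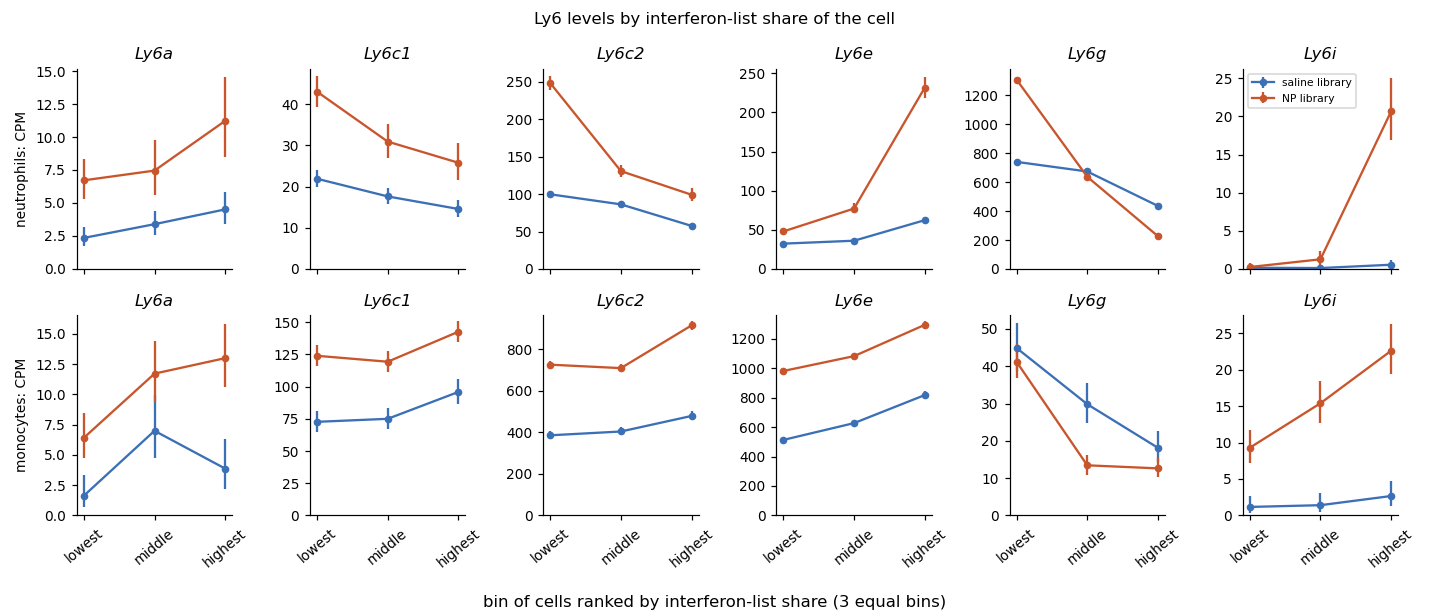
Level of each Ly6 gene in the lowest, middle and highest of 3 equal bins of cells ranked by interferon response genes, in CPM on a linear axis from 0, for neutrophils and monocytes of each library with 95% counting intervals. In NP neutrophils Ly6e is 47.9 CPM in the lowest bin and 232 CPM in the highest, while Ly6g is 1310 and 227 CPM.

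Of 37 other Ly6/uPAR family genes in the matrices 11 had no UMI in either library, 20 had fewer than 200 and 6 had more. Gpihbp1, which carries lipoprotein lipase across capillary endothelium, was 2474 and 2367 CPM in endothelial cells, and like Ly6a it lay near 1-fold there, with a log2 ratio of -0.06. Outside endothelium it was higher in NP in neutrophils (1.68 and 4.56 CPM), monocytes (1.18 and 4.58 CPM), B cells (17.8 and 38.7 CPM), stromal cells (130 and 482 CPM), T cells (4.30 and 12.9 CPM) and alveolar macrophages (0.690 and 9.32 CPM), and it was 0 and 13 UMIs in NK cells. The summed level of endothelial markers was also higher in NP in each of these classes. Plaur, the urokinase receptor, was 297 and 380 CPM in neutrophils and 425 and 568 CPM in alveolar macrophages. Ly6d, a label of the B cell lineage, was 166 and 228 CPM in B cells. Cd59a, an inhibitor of complement, was 111 and 67.8 CPM in stromal cells. Ly6g5b was 2.10 and 4.44 CPM in neutrophils. Slurp1 was 324 UMIs in the saline library and 48 in NP, and it was a leading gene of mesothelial cells, which were 36 and 13 cells. Of the genes that build and attach the GPI anchor, none of 26 in neutrophils and none of 30 in monocytes was past 2-fold in either direction. In endothelial cells 1 of 27 was past 2-fold higher and 2 lower. Of all genes counted 4.07% were higher and 3.3% lower in neutrophils, 3.9% and 1.79% in monocytes and 2.39% and 2.01% in endothelial cells. Whether the GPI anchor genes differ from these shares was not tested.

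The genes whose levels were most like those of each member were named over the 16 points of 8 classes in 2 libraries, among 9564 genes. These values describe the points, which share libraries, classes and depth. For Ly6a they were Nckap5, Pakap and Tm4sf1 (Pearson r 0.988, 0.985 and 0.985), and for Ly6c1 Lats2, Vegfc and Ece1 (0.941, 0.940 and 0.939). For Ly6c2 they were Rap1gap2, Fyb and Gpr65 (0.954, 0.910 and 0.881). For Ly6e they were BC028528, Cbfa2t3 and Slfn5 (0.893, 0.878 and 0.877). For Ly6g they were Lcn2, S100a8 and AA467197 (0.978, 0.977 and 0.962), and Lcn2 and S100a8 encode abundant neutrophil proteins. For Ly6i they were Slc31a1, Oas1a and Gsdmd (0.811, 0.788 and 0.764), of which Oas1a is an interferon-induced antiviral enzyme. Among the members themselves Ly6a and Ly6c1 were the most alike (0.853), while Ly6c1 and Ly6c2, the pair most alike in sequence, had -0.08.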

How the data were processed

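Lungs from tumor-bearing mice given saline or NP were each sequenced as 1 pooled 10x library. The authors deposited UMI counts per gene and barcode, as raw counts with no normalization. Their processing notes name bcl2fastq, Cell Ranger 6.0 and mm10, while the matrix header names another Cell Ranger version. Barcodes were retained at 500 to 5000 genes with a UMI and a mitochondrial share below 7.5%. Doublets were not removed, since Scrublet called 1 of 8662 saline cells (0.0115%) and so did not work there, against 307 of 8333 in NP (3.68%). Counts were scaled to 10000 per cell, and 2000 variable genes without the Ly6/uPAR family, 30 components, 20 neighbours and Leiden resolution 1 gave clusters (scanpy 1.11.5, leidenalg 0.10.2, Python 3.11.15). A cluster took the name of its best marker list at a score of at least 0.4 with at least 3 markers detected. It stayed unnamed where more of its top 10 genes belonged to another list. A second list at 0.75 of the score also left it unnamed, if the best list held fewer than 3 top genes or the second more than 1. Sub-clusters followed the same rules. They also stayed unnamed where more than 1 top gene, and more than from their own list, marked other classes.

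Counts were summed per class and library and divided by the UMIs of the class to give CPM. With 1 library in each group no p-value or standard error could be had. Intervals are exact Poisson for levels, exact binomial (Clopper-Pearson) for shares and exact conditional binomial for ratios, at 95%, and they cover counting error only. A count under 3 UMIs stood at 3 in a ratio, no ratio was given where both counts were at or under 3, and a call needed 20 UMIs and a ratio past 2-fold. The text names the 6 members in every class with at least 50 cells in each library, other family genes with at least 200 UMIs, and for each member the 3 genes with the highest correlation of log2(CPM + 1) among genes with at least 500 UMIs. Sub-cluster values given are those the text singles out, chosen after the values were seen. The members and gene lists were chosen with earlier results of these data known. Of the gene identifiers 99.8% were found in GENCODE vM21, which gave the coordinates of GRCm38. The ratio code was tested on simulated counts. Alternatives are given in the closing section.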

Additional observations from a re-analysis of the deposited data

Results flagged for a closer look

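Ly6g was the member whose ratio of NP to saline went in opposite directions between classes with counting intervals that leave out 1-fold. Its log2 ratio was 0.47 in neutrophils and 2.54 in NK cells, against -0.47 in monocytes, -2.55 in endothelial cells and -0.26 in B cells. With 1 library in each group these differences were not tested. The NK value came from 63 NP UMIs of which 1 cell held 57, and the endothelial value from 20 saline UMIs of which 17 were in 1 sub-cluster of 8 cells. In monocytes the sign of the Ly6g ratio held in 15 of 20 alternatives, which ranged from -1.46 to 0.67, and within the sub-cluster that held most of its UMIs it was 0.39.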

How the results depend on the processing

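No paired analysis was possible because each group has 1 library, and for the same reason no replicate could be left out. Among the called pairs no value that could be computed changed sign. Alternatives that left a pair under the minimum of UMIs gave no value, so for them the sign could not be checked. Stromal Ly6c2 had a value in 11 alternatives, alveolar macrophage Ly6c1 and NK cell Ly6a in 14 each and alveolar macrophage Ly6c2 in 16. Neutrophil Ly6e had a value in 20. Of 790 single values 632 moved by less than their counting interval, which is easier to meet where the interval is wide. The 16 pairs past 2-fold higher became 8 without Scrublet calls, 8 with 1 Scrublet threshold for both libraries, 8 with free RNA subtracted by neutrophil genes, 8 with at least 200 UMIs and 7 at 3-fold. The 1 pair past 2-fold lower became 4 without Scrublet calls, 5 with free RNA by neutrophil genes, 3 with no maximum of genes, 3 without cells with an endothelial marker UMI, 2 with a class from each cell's own score, and 0 with at least 200 UMIs, free RNA by epithelial genes or sub-clusters of other markers left out. The shared Scrublet threshold, the cells without an endothelial marker UMI and the sub-clusters left out were chosen after seeing the data. The shared threshold removed 243 saline and 307 NP cells.

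By class, neutrophils had 1 of 4 higher at 3-fold, Ly6a there was 0.74 of log2 without Scrublet calls and 3.11 with free RNA by epithelial genes, and Ly6c2 was 0.96 with sub-clusters left out. Monocytes had 1 at 3-fold, 1 with free RNA by neutrophil genes and 5 at 1.5-fold, with 1 lower without Scrublet calls. The endothelial Ly6g call was 0 with own scores, either free RNA scaling, 200 UMIs or sub-clusters left out. B cells had 0 higher with either Scrublet setting, resolution 0.5, free RNA by neutrophil genes or 3-fold, with 2 lower by neutrophil free RNA and 1 lower without endothelial marker cells. T cells had 0 higher with a minimum of 200 genes, no maximum, either Scrublet setting, mean per-cell CPM or 3-fold, 2 with 3000 variable genes or own scores, and 3 at 1.5-fold, with 2 lower by neutrophil free RNA and 1 lower with Scrublet calls removed, own scores or no endothelial marker cells. Alveolar macrophages had 0 higher with either Scrublet setting, neutrophil free RNA or 200 UMIs (in part because fewer than 20 UMIs were left), 1 at a 5% mitochondrial limit and 2 with no maximum, mean per-cell CPM, no endothelial marker cells or 3-fold, with 1 lower with no maximum or Scrublet calls removed. Stromal cells had 1 higher with a minimum of 200 or 800 genes, no maximum, 3000 variable genes, the shared Scrublet threshold, mean per-cell CPM, neutrophil free RNA, 3-fold or 200 UMIs, and 0 with sub-clusters left out, with 1 lower with no maximum or own scores. NK cells had 1 higher without Scrublet calls, with either free RNA scaling or without endothelial marker cells, and 0 with the shared threshold, without the top cell (fewer than 20 UMIs left) or at 200 UMIs, with 1 lower by neutrophil free RNA. Over all cells the log2 ratio of Ly6a was 2.05 at a 5% mitochondrial limit, 1.90 at 10% and 1.91 with no maximum of genes, and that of Ly6c1 was 1.85, 1.74 and 1.73. Ly6c2 was 1.39 at 5% and 1.20 with no maximum, Ly6e 1.62 and 1.46, and Ly6g -0.28 and -0.44. The causes were not tested beyond what each alternative leaves out.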

Other observations

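Plasmacytoid dendritic cells, 18 in saline and 34 in NP and so under the minimum for the comparisons above, were looked at after their values were seen. Ly6c2 was 2058 CPM in saline (1864 to 2266) and 2031 CPM in NP (1896 to 2173), above monocytes in both libraries, and every one of these cells had a Ly6c2 UMI. Ly6c1 was 418 and 417 CPM and Ly6e 623 and 480 CPM. Ly6a was 133 UMIs in 6 of the 18 saline cells, 663 CPM, and 11 UMIs in 5 of the 34 NP cells, 26.7 CPM. No Ly6g UMI was found in them, with an exact binomial upper limit on cells with a UMI, not on cells that express the gene, of 18.5% in saline and 10.3% in NP.

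Mesothelial cells, 36 in saline and 13 in NP, had 318 and 188 CPM of Ly6a and 601 and 418 CPM of Ly6e, while Ly6c1 was 8 UMIs in saline and 0 in NP.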
